A study of Mus musculus with 3 samples.

Results

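The regions described here are H3K27ac-enriched stretches of the mouse genome that overlap exactly 1 gene promoter and at least 1 CpG island. They were taken as all regions of the deposited table with a promoter count of 1 and a CpG island count of 1 or more, a rule that uses no signal value. This gave 5673 of 22399 regions (25.3%). H3K27ac is acetylation of lysine 27 of histone H3, and ChIP-seq, the sequencing of immunoprecipitated chromatin, measured it in myeloid-derived suppressor cells (MDSC), immature myeloid cells that accumulate in tumours and restrain immune responses. The cells were sorted as CD45+ CD11b+ Ly6C+ Ly6G+/- F4/80- from subcutaneous tumours of female SCID.beige mice aged 6 to 8 weeks at the start. These mice lack T and B cells and have impaired NK cells. For the tumours, the growth protocol gives MDA-MB-231-X1.1 (from a human line of breast cancer) or CT26 (from a colon carcinoma of the mouse), and the library titles carry the tag tnbc. The vehicle group received the carrier MCT. The inhibitor group received GNE-781, an inhibitor of the bromodomain of CBP and EP300, at 25 mg/kg by mouth in 2 doses a day for 7 days. Each treatment is represented by 1 library, and how many mice it pools was not stated in the labels. The differences below therefore have no replicate check, no test was run, and they describe these 2 libraries.

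CpG islands are stretches rich in the dinucleotide CpG that usually stay unmethylated. They cover the starts of most housekeeping genes and of many regulators of development, signalling and transcription, whereas promoters of genes used in one cell type more often lack one. CBP and its paralogue EP300 acetylate H3K27 at enhancers and promoters, and their bromodomain binds acetylated lysine.

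The sequences of 5 single island promoters named in the results are shown first. All 5 lay above the median vehicle signal of members and were at least 2-fold lower with inhibitor. Weaker members, and members that differed less, are not shown. Ssu72 and Tra2a had the highest vehicle signal, Zranb2 and Sesn2 lay near the lower and upper end of the difference among strong members, and Ep300 encodes a target of the drug. Itgam, which encodes CD11b of the sorting gate, is a single promoter without an island and is printed for contrast. Each sequence runs from 250 bases before to 50 bases after the gene start, on the strand of the gene, from RefSeq on GRCm38.p6, and capitals mark CpG. The stretches are chr4:155704565-155704864 on the plus strand for Ssu72, chr6:49264003-49264302 on the minus strand for Tra2a and chr3:157533915-157534214 on the plus strand for Zranb2. They are chr4:132510407-132510706 on the minus strand for Sesn2, chr15:81585964-81586263 on the plus strand for Ep300 and chr7:128062390-128062689 on the plus strand for Itgam.
Ssu72: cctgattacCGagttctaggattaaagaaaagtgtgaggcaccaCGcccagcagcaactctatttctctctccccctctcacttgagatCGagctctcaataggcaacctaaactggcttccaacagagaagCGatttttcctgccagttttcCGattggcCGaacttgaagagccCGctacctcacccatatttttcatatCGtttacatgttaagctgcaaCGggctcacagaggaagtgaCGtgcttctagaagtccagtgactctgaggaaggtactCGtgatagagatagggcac
Tra2a: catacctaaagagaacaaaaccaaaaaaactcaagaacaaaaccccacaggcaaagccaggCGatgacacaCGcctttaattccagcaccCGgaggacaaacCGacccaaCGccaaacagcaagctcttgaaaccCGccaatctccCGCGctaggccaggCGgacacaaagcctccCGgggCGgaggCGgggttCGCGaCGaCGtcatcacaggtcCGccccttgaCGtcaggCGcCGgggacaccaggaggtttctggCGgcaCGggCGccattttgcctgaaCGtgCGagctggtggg
Zranb2: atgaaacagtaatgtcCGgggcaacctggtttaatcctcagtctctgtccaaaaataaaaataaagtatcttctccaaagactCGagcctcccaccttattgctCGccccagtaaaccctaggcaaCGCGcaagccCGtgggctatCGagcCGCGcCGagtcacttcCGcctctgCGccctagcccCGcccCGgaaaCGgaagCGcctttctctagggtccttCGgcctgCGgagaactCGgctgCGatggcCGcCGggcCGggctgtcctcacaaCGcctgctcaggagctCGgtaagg
Sesn2: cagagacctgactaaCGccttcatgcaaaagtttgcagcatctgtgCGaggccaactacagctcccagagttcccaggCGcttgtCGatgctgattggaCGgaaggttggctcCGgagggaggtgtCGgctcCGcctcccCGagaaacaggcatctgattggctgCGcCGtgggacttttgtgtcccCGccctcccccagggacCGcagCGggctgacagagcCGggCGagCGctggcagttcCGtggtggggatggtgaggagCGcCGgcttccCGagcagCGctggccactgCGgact
Ep300: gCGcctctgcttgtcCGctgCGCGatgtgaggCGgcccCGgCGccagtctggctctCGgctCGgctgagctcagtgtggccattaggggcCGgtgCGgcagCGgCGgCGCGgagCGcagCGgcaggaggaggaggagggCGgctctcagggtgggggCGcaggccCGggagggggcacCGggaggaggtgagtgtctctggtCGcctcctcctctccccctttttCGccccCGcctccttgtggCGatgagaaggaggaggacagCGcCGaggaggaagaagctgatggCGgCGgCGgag
Itgam: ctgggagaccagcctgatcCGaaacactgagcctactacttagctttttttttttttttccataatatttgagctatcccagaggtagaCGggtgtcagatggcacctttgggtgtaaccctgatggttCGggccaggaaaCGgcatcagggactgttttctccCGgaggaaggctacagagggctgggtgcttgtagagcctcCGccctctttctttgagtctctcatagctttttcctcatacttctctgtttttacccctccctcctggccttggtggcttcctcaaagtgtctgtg
The CpG counts were 11 for Ssu72, 25 for Tra2a, 25 for Zranb2, 23 for Sesn2 and 30 for Ep300, against 6 for Itgam. The Ssu72 promoter, the strongest in vehicle signal, thus had the lowest CpG count of the 5 island promoters shown.

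H3K27ac signal was lower with inhibitor at nearly all single island promoters. The median average signal, in the fragment pileup units of the deposited table, was 19.9 with vehicle (quartiles 15.2 and 25.975) and 5.42 with inhibitor (4.45 and 6.56). The log2 difference, log2(inhibitor signal + 1) minus log2(vehicle signal + 1), had a median of -1.76 with quartiles of -2.01 and -1.47. Without the pseudocount the median ratio of vehicle to inhibitor signal was 3.85. The signal was at least 2-fold lower in 5420 members (95.5%), beside 93.4% of all regions. It was lower by any amount in 5665, beside 99.7% of all regions, and at least 2-fold higher in 4, beside 0.138%. The share of lower members is therefore close to that of the whole table, whose median log2 difference was -1.61. Whether the pileup includes the spike-in scaling is not known. A constant factor between the libraries would move every ratio without the pseudocount alike. With the pseudocount of 1, differences at weaker signals would move less. In bulk chromatin, fewer cells of a type and less acetylation per cell cannot be told apart.

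Peak signal, the highest pileup in a region, had a median of 47 with vehicle and 12 with inhibitor. The median log2 difference of the peaks was -1.89. The peak stood at 2.32 times the regional average with vehicle and at 2.25 times with inhibitor, as medians over members.

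An interval was called by the authors in 5665 members with vehicle, beside 99.6% of all regions, and in 1072 (18.9%) with inhibitor, beside 10.3%. Intervals were called in both libraries in 1064 members (18.8%), beside 9.86% of all regions, and with vehicle alone in 4601 (81.1%), beside 89.7%. Members called in both were strong and broad, with a median vehicle signal of 30.8 and a median length of 2209.5 bp, against 18.3 and 1401 bp for those called with vehicle alone. Their inhibitor signal was 7.50 against 5.08, and their log2 difference -1.90 against -1.72. Members called with vehicle alone had at least 9.18 there by the authors' calling, and no such floor applies to the inhibitor signal. The members that kept a call had the larger difference in signal and the higher signal with inhibitor. The call was made on the inhibitor library, so their higher inhibitor signal follows in part from the grouping. Their larger difference goes with a higher vehicle signal, given above.

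**Figure D1:**
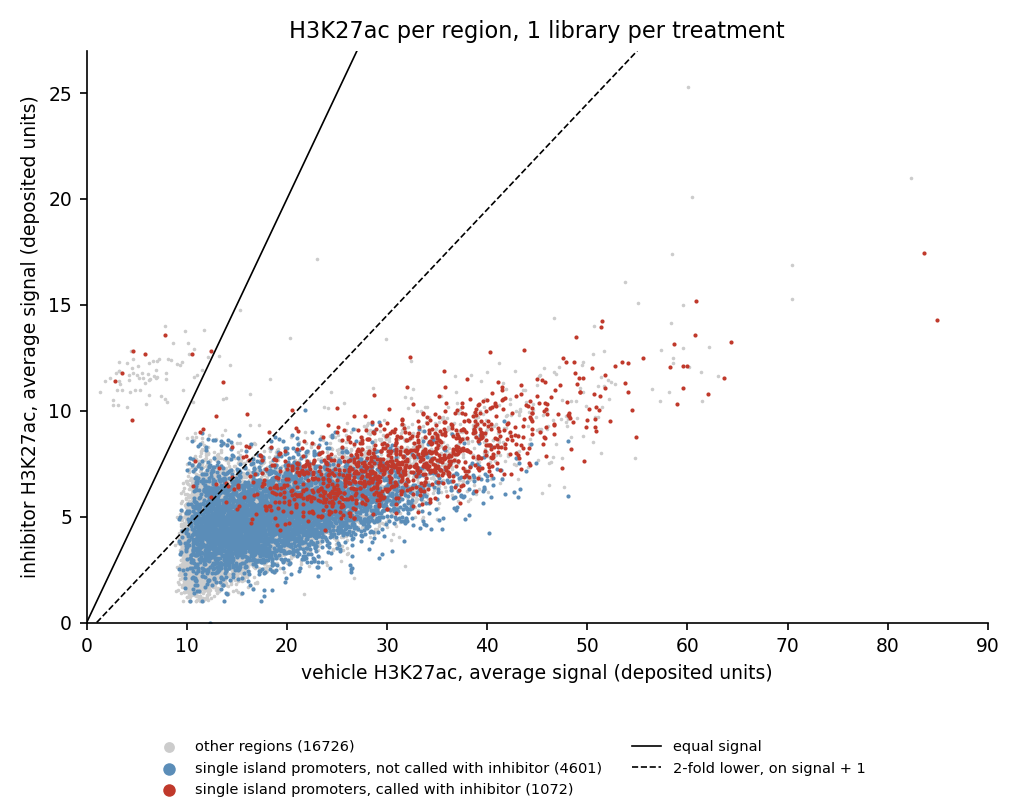
H3K27ac average signal of every region with vehicle (x axis) and inhibitor (y axis), in deposited units. Grey points are the other regions, blue and red points the single island promoters without (4601) and with (1072) an interval called with inhibitor, and the lines mark equal signal and a 2-fold lower signal. Nearly all members lie below the 2-fold line, and the called members lie mostly at higher signal, with medians of 30.8 and 7.50 for those called in both libraries. The 8 above the line of equal signal were called with inhibitor alone.

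The 8 members with the highest vehicle signal lay at or above 59.9, beside a median of 19.9. Ssu72, a phosphatase of the tail of RNA polymerase II, had an average signal of 84.9 with vehicle and 14.3 with inhibitor (chr4:155703873-155706326, log2 difference -2.49), with peaks of 218 and 40. Tra2a, a splicing regulator, had 83.7 and 17.5 (chr6:49262323-49264328, -2.20), and 17.5 was the highest inhibitor signal of any member. These 2 members stood well above the next, Slc25a3, the mitochondrial phosphate carrier, at 64.4 and 13.2 (-2.20). Clk1, a kinase of splicing factors, had 63.6 and 11.5 (-2.37). Tax1bp1, an autophagy receptor, had 62.0 and 10.8 (-2.42), and Ap1g1, a subunit of a clathrin adaptor, had 60.8 and 15.2 (-1.93). The remaining members of the highest 8 were the region at Mir1893, also assigned to Epc1, with 60.8 and 13.6 (-2.08), and Zfp407 with 59.9 and 12.1 (-2.22). All 8 were still called with inhibitor. The 5 highest members with inhibitor were Tra2a, Ap1g1, Ssu72, Crk (51.5 with vehicle and 14.2 with inhibitor), an adaptor in tyrosine kinase signalling, and Vamp4 (51.4 and 13.9), which acts in vesicle fusion.

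Among members with at least the median vehicle signal, the 8 lowest differences belonged to ratios of vehicle to inhibitor signal, without the pseudocount, of 9.06 to 11.2. The region at Mirlet7i, a gene of the let-7 microRNA family, had 26.4 with vehicle and 2.37 with inhibitor (-3.02), and is also assigned to Mon2. Zranb2, a splicing factor, had 40.2 and 4.21 (chr3:157533751-157535353, -2.98) and was the strongest of this group with vehicle. Arid2, a subunit of the PBAF chromatin remodeller, had 26.4 and 2.54 (-2.95). Man1a2, a Golgi mannosidase, had 26.5 and 2.59 (-2.94), and Larp1, which binds messenger RNAs of the translation machinery, had 23.1 and 2.19 (-2.92). Minos1, Eif2s3x and Ndufa10, for proteins of the mitochondrial inner membrane, of translation initiation and of respiratory complex I, lay between -2.91 and -2.85. None of these 8 was called with inhibitor.

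The highest differences above the median vehicle signal lay near 2-fold. Yaf2, a component of Polycomb repressive complexes, had 20.5 with vehicle and 10.04 with inhibitor (-0.96). Cdkn2aip, which binds the tumour suppressor ARF, had 21.8 and 10.03 (-1.05). Sesn2, a stress-responsive regulator of mTORC1, had 20.9 and 9.19 (chr4:132509303-132511146, -1.11) and was still called with inhibitor. Lrp1, an endocytic receptor, had 20.5 and 8.83 (-1.13). Pam16, Gca, Ppan and H6pd lay between -1.14 and -1.22, with inhibitor signals from 8.00 to 9.03. Zranb2 therefore lay above Sesn2 with vehicle (40.2 against 20.9) and below it with inhibitor (4.21 against 9.19). Of these 8, only Yaf2, Sesn2 and Pam16 were called with inhibitor, and all 8 lay above the median of all regions, so that they turn positive when the differences are recentred on it (0.39 to 0.64).

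The difference followed the vehicle signal. In 5 classes of members of nearly equal size, from weakest to strongest with vehicle, the median log2 difference was -1.29, -1.56, -1.74, -1.92 and -2.07. The median inhibitor signal in the same classes was 4.50, 4.79, 5.28, 5.78 and 7.30, so it spanned a far narrower range than the vehicle signal, which went from 12.6 to 32.9. Weak averages may be overstated in the deposited table, and the part of this in the narrow range was not tested. Peak signal went from 23 to 92 with vehicle and from 9 to 19 with inhibitor over the same classes. Intervals were called with inhibitor in 1.76%, 3.09%, 8.72%, 21.3% and 59.6% of them. Ordered by inhibitor signal instead, the median log2 difference showed no such gradient (-1.88, -1.72, -1.70, -1.69 and -1.81). Across the 5673 members the Spearman correlation of vehicle signal with the log2 difference was -0.69 (Pearson -0.62), and that of vehicle with inhibitor signal was 0.57 (0.65). The vehicle signal is part of the log2 difference, and all points come from the same 2 libraries. The 245 members called with vehicle that were less than 2-fold lower were weak, with median signals of 12.2 and 6.46 and a median length of 966 bp.

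Longer members differed more, up to the fourth of 5 length classes, and were called more often with inhibitor. The lengths ran from 271 to 20407 bp, with a median of 1518 bp. In these classes, from shortest to longest, the median log2 difference was -1.45, -1.65, -1.80, -1.89 and -1.89, and 2.73%, 6.60%, 15.3%, 26.7% and 43.2% were called with inhibitor. The median vehicle signal rose as well, from 13.6 and 17.7 to 20.7, 23.5 and 25.3. In the strongest of 10 classes of all regions by vehicle signal, longer members did not differ more. There the medians over 5 length classes of all regions were -2.30, -2.12, -2.11, -2.07 and -2.03, the first from 19 members. All 164 members of 5000 bp or longer were at least 2-fold lower, and 102 of them (62.2%) were called with inhibitor. The longest covered Sirpa, the inhibitory myeloid receptor for CD47, with 20407 bp and signals of 29.9 and 7.28 (-1.90). Sh3bp2, a signalling adaptor, followed with 19779 bp, 26.8 and 6.62 (-1.87), and N4bp1, an inhibitor of NF-kB signalling, with 17621 bp, 20.2 and 4.71 (-1.90). Ctsd, the lysosomal protease cathepsin D, had 16643 bp, 24.5 and 7.08 (-1.66). The 163 members with 2 or more islands had a median length of 2485 bp and were called with inhibitor in 33.7%, with a median log2 difference of -1.75, against -1.76 for the 5510 members with 1 island.

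The centre of a member lay within 1000 bp of its gene start in 88.1% of cases and downstream of it in 76.5%. The gene start was inside the region in 4714 members (83.1%), which had a median vehicle signal of 20.7, a log2 difference of -1.79 and a call with inhibitor in 20.6%. The other 959 had 15.9, -1.62 and 10.6%. They include the regions named above at Larp1, Yaf2, Lrp1 and H6pd. Members belonged to 5218 different promoter genes, of which 415 had 2 members and 20 had 3. Over the 415 pairs the median absolute gap between both log2 differences was 0.36, and the member with the stronger vehicle signal had the larger difference in 269 pairs (64.8%). The 3 widest gaps, chosen after their values were seen, are from Yaf2, Rala and Nek6. The pairs at Yaf2 and Nek6 flank the gene start. Upstream of the start of Yaf2, chr15:93337090-93338001 kept 10.04 of 20.5 (-0.96), whereas downstream chr15:93336020-93336552 had 13.7 with vehicle and 1.00 with inhibitor (-2.88). By the region centres the order was the opposite at Rala, a small GTPase. There chr13:17944056-17944985, centred upstream but covering the start, had 24.3 and 2.59 (-2.82). Downstream of the start, chr13:17943332-17943848 had 10.9 and 6.62 (-0.65). At Nek6, a mitotic kinase, the upstream region chr2:38511190-38511647 had 12.4 with vehicle and is listed at 0 with inhibitor, and chr2:38511801-38512693 downstream had 18.4 and 7.39 (-1.21).

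Only 8 members were called with inhibitor alone (0.141%, beside 0.397% of all regions). They entered the table through that call, so a higher signal with inhibitor was favoured in advance. They were also the only 8 members with a higher signal with inhibitor. They were short, from 271 to 398 bp, and their median signal was 5.21 with vehicle and 12.7 with inhibitor. Ror1, a receptor of Wnt5a, had 2.80 and 11.4 (log2 difference 1.71), and Cacna1s, a calcium channel subunit of skeletal muscle, 3.50 and 11.8 (1.51). Hey2, a target of Notch signalling, had 4.58 and 12.8 (1.31). Tet1, a dioxygenase of methylated cytosine, had 5.83 and 12.7 (1.00) in a region 7037 bp upstream of its start. Fgf18 (0.93), Nkd1 (0.73), Tomm20l (0.24) and Ebf4 (0.04) showed smaller differences. Ror1, Cacna1s and Fgf18 are named to complete the 8 after their values were seen.

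Compared with the classes most like them, single island promoters resembled island regions with several promoters and were stronger than single promoters without an island. The 2325 island regions with 2 or more promoters had medians of 21.2 with vehicle and 5.66 with inhibitor, a log2 difference of -1.79 and a call with inhibitor in 22.2%. The 3007 single promoters without an island had 13.4 and 4.28, a log2 difference of -1.57, and a call with inhibitor in 5.89%. The difference of medians was 0.02 log2 from the former and -0.20 from the latter. At like vehicle signal the gap to promoters without an island changed sign. In 10 classes of vehicle signal over all regions, members minus promoters without an island was 0.23, 0.14, 0.25, 0.13, 0.08, 0.11, 0.08, 0.05, -0.04 and -0.10 from weakest to strongest. In the weakest class the members kept an inhibitor signal of 4.25 against 3.49, and in the strongest 7.20 against 7.19. Members made up 7.18% of the weakest class and 56.1% of the strongest. In the strongest class, 718 of 1257 members (57.1%) were called with inhibitor, against 91 of 127 promoters without an island (71.7%), which were longer (a median of 3872 against 2051 bp). Among those also in the longest of 5 length classes the shares were 73.4% (328 of 447) and 77.7% (73 of 94). Members minus island regions with several promoters lay between -0.08 and 0.03 in all 10 classes.

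**Figure D2:**
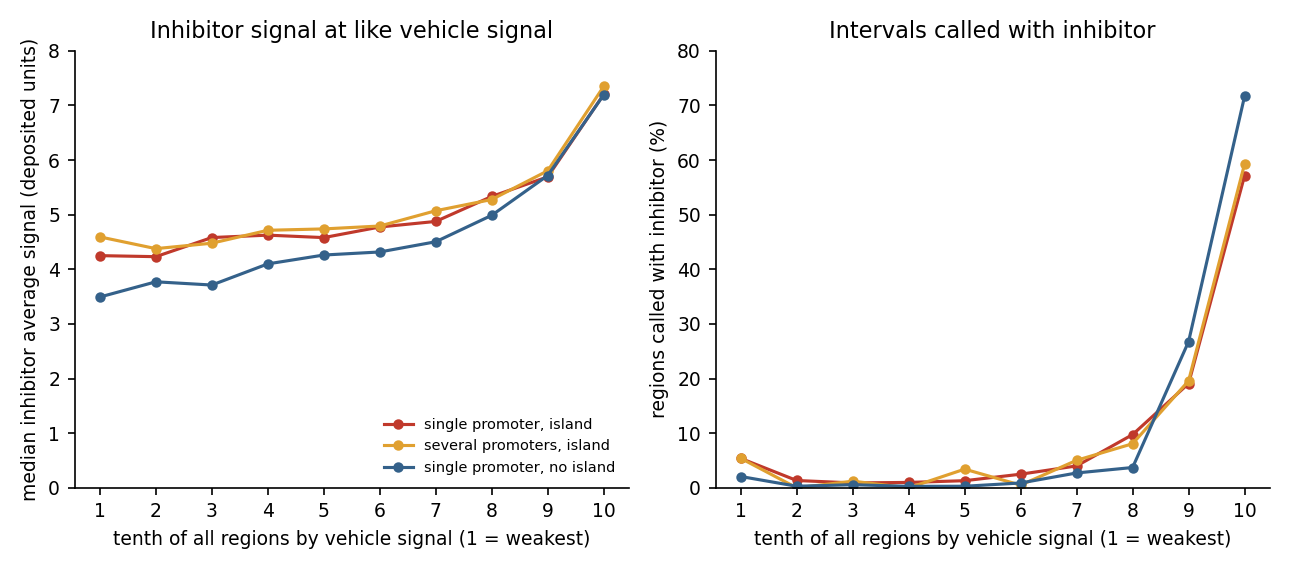
Left, median inhibitor average signal, in deposited units, within 10 classes of all regions by vehicle signal, for single promoters with an island (red), island regions with several promoters (yellow) and single promoters without an island (blue). Right, the percentage of the same regions called with inhibitor. Island promoters hold more inhibitor signal at weak vehicle signal (4.25 against 3.49 in class 1), and the lines meet in class 10 (7.20 and 7.19).

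The sequences were compared where a RefSeq promoter was at hand. A match was a RefSeq start of the member's gene inside the region or at most 10000 bp from it. The sequence can therefore lie outside the region. Of 5506 members off chromosome 18, 4531 (82.3%) matched one, with 4239 different sequences among them. Their median G+C content was 64.0%, their CpG count 24 and their ratio of observed to expected CpG 0.828, against 52.7%, 7 and 0.384 over all 32851 promoters of the table. An enrichment of CpG is what an island is defined by. Among members, the log2 difference lay lower with higher CpG ratio. Over 5 classes of that ratio, with medians from 0.564 to 1.06, the median log2 difference was -1.69, -1.70, -1.77, -1.78 and -1.86. The vehicle signal went from 19.4 in the lowest class to 20.7 in the highest, and the inhibitor signal from 5.60 to 5.31. Within each of 5 classes of vehicle signal the highest CpG class also had a lower value than the lowest, as from -1.22 to -1.39 among the weakest and from -2.03 to -2.13 among the strongest. The Spearman correlation over the 4531 members was weak, at -0.15, and that of G+C content with the log2 difference was -0.01.

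**Figure D3:**
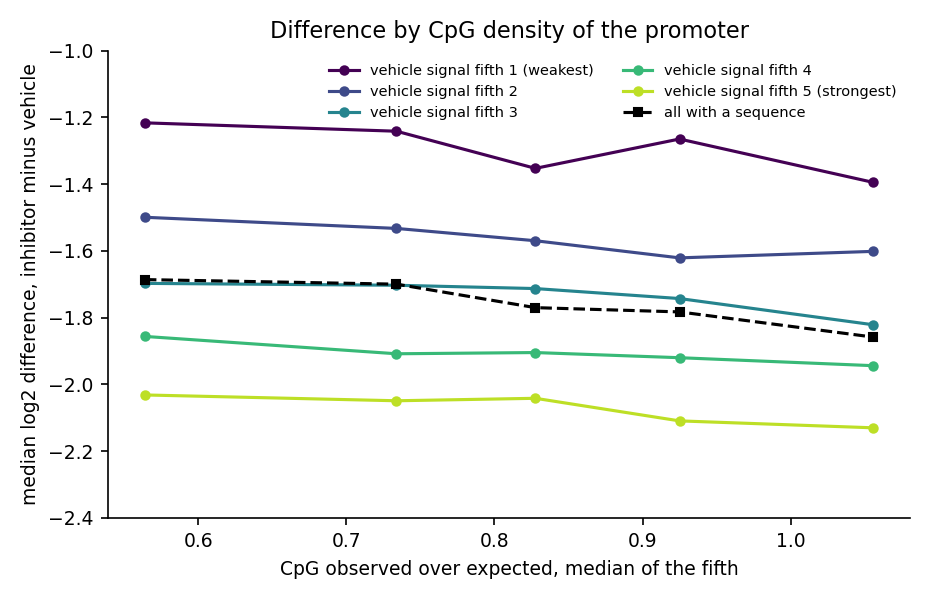
Median log2 difference (y axis, inhibitor minus vehicle) of single island promoters in 5 classes of the observed over expected CpG ratio of their RefSeq promoter (x axis, class median), for all 4531 members with a sequence (black) and within 5 classes of vehicle signal (colours). The black line goes from -1.69 to -1.86, and each coloured line ends lower than it begins.

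Short motifs were searched on both strands of the 300 bases. GGGCGG, the core bound by Sp1, was present in 75.6% of the matched members and 35.7% of all promoters, and CCGGAAG, an ETS motif, in 20.7% and 8.86%. TATAAA was present in 5.30% and 13.6%, and CCAAT in 37.2% and 37.4%. The NRF1 motif was in 2.54% and 0.971%, TTTCGCGC, for E2F, in 0.684% and 0.323%, and the E-box CACGTG in 11.1% and 7.15%. An interferon response motif was in 2.05% and 3.44%. TGACGTCA, the site of CREB and ATF factors, which recruit CBP and EP300, was in 3.91% and 1.79%, and the Tra2a promoter printed above holds 1. The 177 members with TGACGTCA had a median vehicle signal of 24.0 against 19.9 without it, a log2 difference of -1.91 against -1.75, and a call with inhibitor in 29.9% against 19.0%. Within 5 classes of vehicle signal the log2 difference was lower with the motif in classes 2, 4 and 5 and higher in classes 1 and 3. Calls with inhibitor were more frequent with the motif in classes 2, 3 and 4. The shares there were 4.55% (1 of 22 members) against 2.37%, 11.4% (4 of 35) against 9.08% and 26.5% (9 of 34) against 22.2%. Such calls were less frequent in class 1 (0 of 20 members against 2.25%) and class 5 (59.1%, 39 of 66, against 61.3%). The counts with the motif are small, and in class 2 the share rests on 1 region. Among the motifs searched, only those that contain CpG were more frequent in members than in all promoters. These were the motifs of Sp1, ETS, NRF1, E2F, the E-box and CREB and ATF factors. Members were chosen for CpG islands, so these shares cannot separate a preference for a factor's site from CpG content. A match describes letters in the 300 bases searched and not a bound factor.

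The genes of single island promoters were described in 12 lists with 526 different genes, of which 233 had a member. For a gene with several members the strongest was used. Such a region does not always cover the gene start. Among the list genes named below, those at Crebbp, Kat6a, Tfeb, Foxo1, Stat5a, Myc, Myb, Traf3, Nfkbia and Tal1 lay beside it. Over all 5218 genes with a member the median log2 difference was -1.77, 4995 (95.7%) were at least 2-fold lower and 1050 (20.1%) were called with inhibitor. A single island promoter was found for 24 of 39 genes of autophagy and endosomal sorting, with another 14 covered by island regions with several promoters, and for 28 of 48 myeloid transcription factors. It was found for 14 of 47 interferon and antigen presentation genes, of which 46 had a region of any kind, and for 7 of 45 neutrophil granule, surface and effector genes, of which 40 had one. Genes of other lineages had 2 of 36, and only 12 of these 36 had a region of any kind.

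Among the genes of lysine acetylation, all 24 with a member were at least 2-fold lower, 6 were called with inhibitor, and the median was -1.99. Ep300 had 40.4 with vehicle and 9.13 with inhibitor (chr15:81584351-81587261, -2.03), with peaks of 115 and 28, and remained called. Its paralogue Crebbp had 22.7 and 8.00 (chr16:4212584-4213322, -1.40), lay above the median of all regions and was not called. Its peaks were 59 and 17, and by peak signal its difference (-1.74) lay below the median of all regions (-1.61). The Ep300 region was thus the stronger of both with vehicle, and their inhibitor signals lay close together. The Ep300 region, of 2910 bp, covered its gene start. The Crebbp region, of 738 bp, was centred 451 bp downstream of its gene start and did not cover it. The comparison is therefore not one of the same part of both promoters. Kat6a, another acetyltransferase, had 19.7 and 3.44 (-2.22), and Hdac1, a deacetylase, 17.98 and 4.65 (-1.75). The list ran from Atad2b, a bromodomain protein, with 35.5 and 4.43 (-2.75), to Hdac6 with 11.6 and 4.33 (-1.24).

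Of RNA polymerase II, general factors and Mediator, 29 of 58 genes had a member, with a median of -1.96, all at least 2-fold lower and 8 called with inhibitor. Polr2m had 25.1 and 3.74 (-2.46), and Polr2e, a shared polymerase subunit, 16.1 and 6.47 (-1.20). Protein folding and the unfolded protein response had 17 members of 38 genes and a median of -1.95, all at least 2-fold lower and 7 called. They ran from the stress sensor Ern1 at 22.4 and 2.86 (-2.60) to the chaperone Hsp90ab1 at 20.5 and 6.24 (-1.57). Autophagy and endosomal sorting had a median of -1.98, all 24 at least 2-fold lower and 8 called. Its range went from Atg16l1, needed for lipidation of LC3, at 43.3 and 6.29 (-2.60) to Tfeb, a transcription factor for lysosomal genes, at 16.7 and 7.51 (-1.05). DNA repair had 14 members of 44 genes and a median of -1.74, with 5 called. Of these, 13 were at least 2-fold lower, led by the ubiquitin ligase Rnf168 at 28.7 and 5.21 (-2.26), and the exception was the checkpoint kinase Chek1 at 12.8 and 6.67 (-0.85).

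MAP kinase and PI3 kinase signalling had 28 members of 48 genes, all at least 2-fold lower, a median of -1.96 and 6 called, from Map3k3 at 28.7 and 4.76 (-2.36) to Foxo1 at 13.1 and 4.29 (-1.41). Apoptosis and survival had 18 members of 32 genes, all at least 2-fold lower, a median of -1.82 and 9 called. Casp2, an initiator caspase, had 27.4 and 3.85 (-2.55), and the executioner Casp6 had 12.0 and 4.97 (-1.12). Mcl1, a survival factor on which neutrophils depend, had 33.3 and 6.01 (-2.29) over 5316 bp, with peaks of 139 and 18, and remained called.

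Myeloid transcription factors had a median of -1.90, with 27 of 28 at least 2-fold lower and 8 called. Stat3, which transmits cytokine signals in MDSC, had 48.8 and 11.8 (chr11:100938132-100940467, -1.96), with peaks of 177 and 38, and remained called. The region at Stat5a had 23.3 and 5.64 (-1.87). Cebpd, the lowest of the list, had 30.7 and 5.26 (-2.34), and Cebpa, a regulator of granulocyte development, 20.3 and 5.28 (-1.76). Irf1 had 27.8 and 6.08 (-2.02), whereas Irf8, a determinant of monocytes, had 11.5 and 3.83 (-1.37). Myc had 13.2 and 4.24 (-1.43). The exception to the 2-fold rule was Myb, a factor of progenitor cells, at 9.44 and 5.31 (-0.73). The regions at Myc and Myb were centred 2498 and 1024 bp downstream of the gene start and did not cover it. Irf8, Myc and Myb had vehicle signals below the lower quartile of members.

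Immediate early, NF-kB and inflammatory genes had 28 members of 50 genes, all at least 2-fold lower, with a median of -1.89. Intervals were called with inhibitor in 16 (57.1%), beside 20.1% of all genes with a member, and their median vehicle signal was 28.5 against 20.4. In the 2 strongest of 5 classes of members the shares were 21.3% and 59.6%. Among them Traf3, a regulator of NF-kB signalling, had 32.5 and 4.92 (-2.50), and Nfkbia, the NF-kB inhibitor, had 31.4 and 4.79 (chr12:55489901-55492059, -2.48), and neither was called with inhibitor. Traf2 had 20.5 and 7.28 (-1.37) and was called.

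Interferon response and antigen presentation had a median of -1.77, all 14 at least 2-fold lower and 6 called, from the receptor kinase Jak1 at 37.0 and 7.02 (-2.24) to Tyk2 at 14.8 and 5.23 (-1.34). The 7 neutrophil granule, surface and effector genes had a median of -1.79, all at least 2-fold lower and 3 called. They ran from Hmox1, haem oxygenase, at 22.5 and 4.39 (-2.12) to Ptgs1, a cyclooxygenase, at 14.7 and 6.66 (-1.04). The genes of other lineages were Kdr, an endothelial receptor, at 14.2 and 4.34 (-1.51), and Tal1, a haematopoietic factor, at 20.1 and 6.91 (-1.41), neither called with inhibitor. Actb, the cytoskeletal actin used as a housekeeping control, had 22.1 and 7.15 over 6434 bp (-1.50). Beside the median of -1.77 over all genes with a member, the medians of DNA repair, interferon and other lineage genes lay above it and those of the other 9 lists below. For interferon the gap was small (-1.767 against -1.774). The 9 lists below had median vehicle signals from 21.5 to 28.5, against 20.4 over all genes with a member. Those above had 20.0 (DNA repair), 25.8 (interferon) and 17.1 (other lineages).

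**Figure D4:**
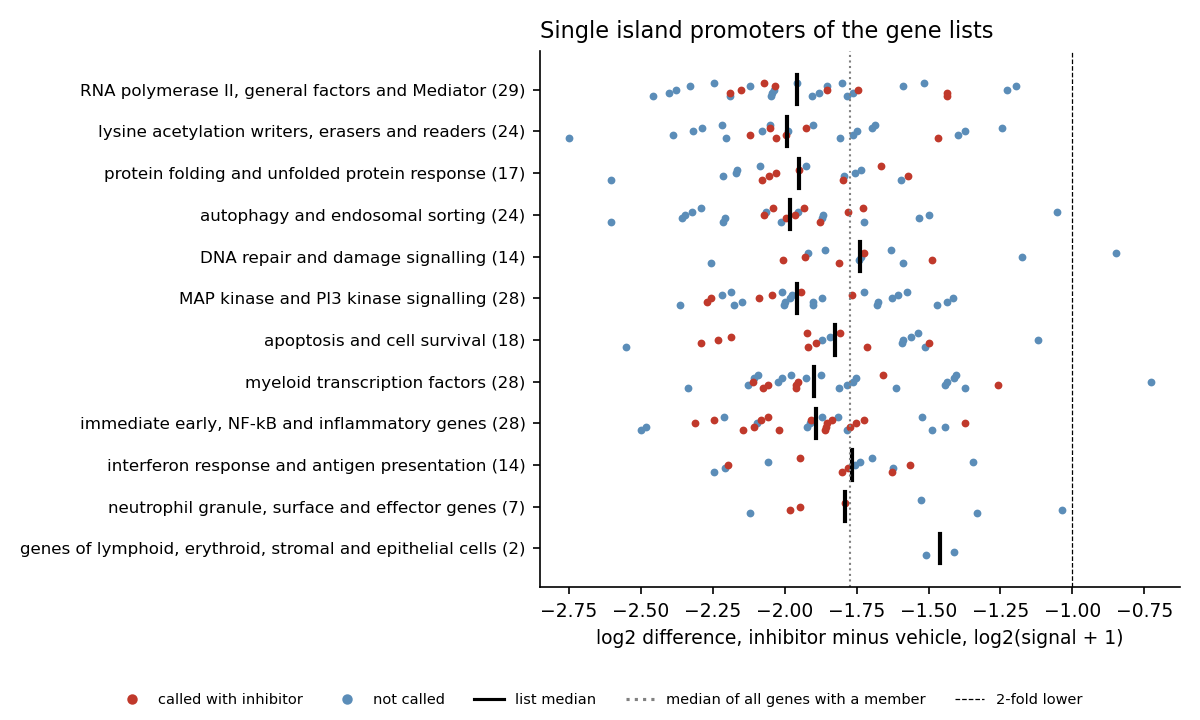
Log2 difference (x axis, inhibitor minus vehicle, on the log2(signal + 1) scale) of the strongest single island promoter of each gene, in 12 gene lists with the number of genes in parentheses. Red points were called with inhibitor and blue points were not, black bars are list medians, and the dotted and dashed lines mark the median of all 5218 genes (-1.77) and a 2-fold lower signal. Only Chek1 and Myb lie to the right of the 2-fold line.

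The sorted cell type was checked against defining genes over all regions of the table. Of 11 genes of the sorted myeloid cells, 10 had a region (vehicle signal of the strongest from 13.0 to 40.6), the exception being Ly6c1, and none of them was a single island promoter. Of 6 macrophage genes, 5 had a region although the gate excludes F4/80, including Adgre1, which encodes F4/80, with vehicle signals from 10.2 to 41.9 and none at Mrc1. Regions were found for 2 of 8 T, B and NK cell genes, 1 of 5 erythroid and mast cell genes, 2 of 6 of endothelium and stroma and 1 of 4 epithelial genes. Their vehicle signals were 19.5 to 26.6 at Cd3g and Cd79a and 22.3 at Klf1. Pecam1 and Kdr had 14.2 to 17.2, and Krt8 had 14.2. These values lay within the range of the sorted myeloid genes. The part of such cells in the signal of single island promoters was not tested.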

How the data were processed

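The 2 libraries analysed were H3K27ac ChIP-seq of vehicle and of inhibitor. The 1 pooled input has no column in the table and was not used here. Per the submitters' processing notes, BWA and SICER were used, with the builds hg19 and dm3 named. No versions are given. Per the labels' protocols, reads were paired and of 150 bp, fragments were about 380 bp, and Drosophila chromatin was added as a spike-in, whose scaling factors were not analysed here. The deposited average and peak signal are the authors' fragment pileup per region, and the depth is unknown, so no counting interval is given. The coordinates are of the mouse: of 5323 members with a current symbol, 99.96% lay on the chromosome of their gene in GRCm38, the build named here, and 88.9% gave its start within 1000 bp. No deposited average lay between 0 and 1, and average times the number of 32 bp bins was whole, within a rounding of 0.0005 for each bin, for 95.0% of members with vehicle and 45.6% with inhibitor. How the average was made is not stated. A mean over occupied bins alone would have both properties and would overstate weak signal.

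A pseudocount of 1 was used, and 2-fold was the rule of size. With 1 library per treatment no p-value was computed. The promoter of a region is a gene start within 7500 bp upstream to 2500 bp downstream, which matched the deposited promoter count of all 5673 members. Members and lists were chosen with earlier results of these data known. Named were the 8 members with the highest vehicle signal, the 8 with the lowest and the 8 with the highest difference at or above the median vehicle signal, the 5 longest, the 5 highest with inhibitor, up to 5 called with inhibitor alone, the lowest and highest of each list, and a fixed set of 20 genes. Of that set, Spi1, Cebpb, Runx1, Hif1a, Polr2a and Ptprc had no single island promoter. Of the members this rule takes, 2 are not reported here, and counts and medians include them. Single promoters without an island matched a RefSeq sequence in 74.9%, too few for a comparison of sequences. Computations used Python 3.11.15, pandas 2.3.3, numpy 2.4.6 and scipy 1.17.1, were tested on simulated data, and alternatives are given in the closing section.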

Additional observations from a re-analysis of the deposited data

How the results depend on the processing

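No paired analysis was possible because each treatment has 1 library. The median log2 difference of single island promoters (-1.76) was -1.89 with peak signal, -1.95 without a pseudocount and -1.86 for members with vehicle signal at or above the median of all regions. Recentring on the median of all regions (a shift of -1.61) left -0.16. The share at least 2-fold lower (95.54%) was 93.95%, 97.09% and 99.57% under the first 3 and 0.864% when recentred. The share called with inhibitor (18.9%) was 23.63% for members at or above the median vehicle signal. The difference of medians from island regions with several promoters (0.023) was 0.008 with peak signal, 0.014 without a pseudocount and -0.011 at or above the median vehicle signal, a change of sign whose cause was not tested. That from single promoters without an island (-0.195) was -0.347, -0.155 and -0.081 under the same settings. A pseudocount of 10 percent of the median (0.990), exactly 1 island, and regions called with vehicle changed the direction of none of these. These settings lie close to the main one, which has a pseudocount of 1 and 5673 members. The last 2 kept 5510 and 5665 members, so they are weak checks.

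Recentring turned positive 22 of the 66 named members that were at least 2-fold lower, since they differed less in average signal than the median region. They were Ptgs1 (0.57), Cdkn2aip (0.56), Tfeb (0.55), Sesn2 (0.50), Casp6 (0.49), Lrp1 (0.48), Pam16 (0.46), Gca (0.43), Ppan (0.42), Polr2e (0.41), H6pd (0.39), Hdac6 (0.36), Tyk2 (0.26), Irf8 (0.23), Traf2 (0.23), Crebbp (0.21), Tal1 (0.19), Foxo1 (0.19), Myc (0.17), Actb (0.11), Kdr (0.10) and Hsp90ab1 (0.035). Yaf2, Chek1 and Myb, less than 2-fold lower with the pseudocount, also turn positive. The unknown depth and the single library per treatment limit every value.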

Other observations

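Single island promoters of chromosome X differed less than those of the autosomes. The 144 members on X had a median vehicle signal of 16.9, an inhibitor signal of 5.10 and a log2 difference of -1.57, against 20.0, 5.43 and -1.77 for the 5529 autosomal members. The medians of single autosomes lay between -1.87 on chromosome 18 and -1.70 on chromosome 7, so X was outside their range. The X members were called with inhibitor in 10.4% and the autosomal members in 19.1%. They were also weaker with vehicle and shorter (1278 against 1522 bp). Within 5 classes of vehicle signal, X minus autosomes was 0.08, 0.09, 0.02, -0.01 and 0.10 from weakest to strongest, the last from 10 members on X.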
